A study of Mus musculus with 30 samples.

Results

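The regions described here are 2788 stretches of chromatin that carried acetylated histone lysine (Kac) in neural stem and progenitor cells (NSPCs) treated with MS-275 and that overlapped, by 1 bp or more, no Kac peak of the DMSO control. They were picked from the 7555 Kac peaks of the MS-275 library by comparison with the 23427 Kac peaks of the control library, and the 4767 MS-275 peaks that did overlap a control peak are called kept peaks below. The 8 peak lists used here hold 128515 peaks. NSPCs were grown with EGF and FGF from C57BL/6 mouse forebrain at E13.5 (embryonic days), at early passage, and were given 1 μM MS-275, 10 mM crotonate or, as control, DMSO for 24 h. Chromatin immunoprecipitation (ChIP) used antibodies against any acetylated (pan-Kac) or crotonylated (pan-Kcr) histone lysine, with 1 library per antibody and treatment; RNA was sequenced from 4 biological replicates per treatment, in TPM (a share of all transcripts that is corrected for transcript length). H3K9ac and H3K9cr peaks and 1 RNA library of the untreated C57BL/6 forebrain at E13.5 were set beside them. With 1 ChIP library per condition there is no replicate check on the presence of a peak.

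Acetylation of histone tails is laid down by acetyltransferases and removed by histone deacetylases (HDACs), and it marks active promoters and enhancers. MS-275 (entinostat) is a benzamide that inhibits class I HDACs, which sit in corepressor complexes on chromatin. Crotonate, a short-chain fatty acid, is turned into crotonyl-CoA in cells, the donor for crotonylation of the same lysines. In neural progenitors, class I HDACs in complexes with REST and CoREST are known for repressing neuronal genes.

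The gained peaks were narrow, with a median width of 244 bp, against 277 bp for kept peaks, and ran up to 912 bp. The MS-275 list starts at 201 bp, and the MS-275 list as a whole had fewer peaks than the control list, so absence from the control list and a higher Kac level are not the same measurement. Peak heights, read depth and the calling threshold of the NSPC lists are not given in the sources used here. A gained peak lay a median of 2443 bp from the next control Kac peak. Of the 2788, 383 had a control peak within 200 bp, 41.0% had one within 1 kb, and 831 (29.8%) lay 20 kb or more from any. The 5 gained peaks closest to the boundary of the definition had 0 to 2 bases between them and a control peak, and the 5 kept peaks closest to it shared 1 base with one.

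Sequence is given here for 7 promoter windows that a gained peak covers in part. Only 24.0% of gained peaks were centred within 1 kb of a start, so these windows do not stand for all 2788 regions. The lines below give RefSeq promoter windows (GRCm38.p6, 250 bases before to 50 after an annotated start, 5′ to 3′ on the strand of the gene) of genes whose RNA is described further on; capitals mark the bases inside the gained peak. They are, on the minus strand, the windows of Rtn4rl2 at chr2:84886643-84886942, Prkcd at chr14:30626159-30626458, Plin2 at chr4:86670010-86670309 and Elavl3 at chr9:22051974-22052273. On the plus strand they are those of Fabp3 at chr4:130308488-130308787, Cnn2 at chr10:79988350-79988649 and Lpgat1 at chr1:191718145-191718444.
Rtn4rl2: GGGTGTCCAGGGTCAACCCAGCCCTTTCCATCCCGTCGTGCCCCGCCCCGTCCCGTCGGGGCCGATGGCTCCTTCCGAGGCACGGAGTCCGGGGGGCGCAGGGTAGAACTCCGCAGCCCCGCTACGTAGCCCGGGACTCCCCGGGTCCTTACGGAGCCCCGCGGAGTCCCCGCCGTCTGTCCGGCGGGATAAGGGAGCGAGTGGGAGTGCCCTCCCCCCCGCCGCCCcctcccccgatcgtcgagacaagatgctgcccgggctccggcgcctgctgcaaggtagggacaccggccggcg
Prkcd: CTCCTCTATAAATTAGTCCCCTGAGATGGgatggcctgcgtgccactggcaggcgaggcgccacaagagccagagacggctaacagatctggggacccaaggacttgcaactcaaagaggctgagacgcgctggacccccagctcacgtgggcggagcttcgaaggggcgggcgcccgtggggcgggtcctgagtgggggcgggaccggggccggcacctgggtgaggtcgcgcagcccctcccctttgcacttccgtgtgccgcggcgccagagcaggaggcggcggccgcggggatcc
Fabp3: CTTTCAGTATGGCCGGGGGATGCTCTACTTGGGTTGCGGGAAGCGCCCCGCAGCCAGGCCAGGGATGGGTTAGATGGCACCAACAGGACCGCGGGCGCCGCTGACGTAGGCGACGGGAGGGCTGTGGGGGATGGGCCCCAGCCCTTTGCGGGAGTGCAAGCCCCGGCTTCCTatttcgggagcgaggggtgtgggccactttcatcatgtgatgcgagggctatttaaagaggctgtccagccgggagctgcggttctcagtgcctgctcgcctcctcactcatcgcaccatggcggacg
Cnn2: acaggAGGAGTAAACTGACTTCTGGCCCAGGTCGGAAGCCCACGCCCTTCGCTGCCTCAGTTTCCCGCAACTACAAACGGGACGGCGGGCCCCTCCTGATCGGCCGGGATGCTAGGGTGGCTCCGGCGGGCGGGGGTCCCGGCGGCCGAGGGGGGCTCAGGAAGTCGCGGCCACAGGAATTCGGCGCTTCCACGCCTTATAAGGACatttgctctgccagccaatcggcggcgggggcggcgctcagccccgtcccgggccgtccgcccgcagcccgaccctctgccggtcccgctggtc
Plin2: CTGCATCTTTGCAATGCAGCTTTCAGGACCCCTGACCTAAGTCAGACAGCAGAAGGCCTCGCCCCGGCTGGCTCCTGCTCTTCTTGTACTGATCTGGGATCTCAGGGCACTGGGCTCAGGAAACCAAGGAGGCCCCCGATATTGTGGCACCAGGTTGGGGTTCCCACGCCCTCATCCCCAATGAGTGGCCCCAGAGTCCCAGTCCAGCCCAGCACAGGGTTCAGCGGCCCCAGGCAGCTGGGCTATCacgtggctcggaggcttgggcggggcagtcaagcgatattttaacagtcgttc
Elavl3: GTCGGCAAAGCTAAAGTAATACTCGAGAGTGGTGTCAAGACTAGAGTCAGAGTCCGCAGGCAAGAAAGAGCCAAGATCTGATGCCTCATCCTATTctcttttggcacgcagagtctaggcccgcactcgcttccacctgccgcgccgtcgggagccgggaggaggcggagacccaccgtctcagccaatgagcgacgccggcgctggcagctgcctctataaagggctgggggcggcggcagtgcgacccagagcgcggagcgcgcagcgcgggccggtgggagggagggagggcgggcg
Lpgat1: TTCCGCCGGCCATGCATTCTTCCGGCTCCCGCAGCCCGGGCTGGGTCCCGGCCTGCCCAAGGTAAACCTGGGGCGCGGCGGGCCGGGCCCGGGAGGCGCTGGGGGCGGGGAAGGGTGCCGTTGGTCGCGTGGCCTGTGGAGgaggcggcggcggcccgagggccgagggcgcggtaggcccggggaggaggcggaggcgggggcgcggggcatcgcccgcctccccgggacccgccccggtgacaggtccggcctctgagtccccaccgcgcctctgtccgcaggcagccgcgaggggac
The peaks cover 227 of these bases at Rtn4rl2, 29 at Prkcd, 172 at Fabp3, 201 at Cnn2, 247 at Plin2, 95 at Elavl3 and 141 at Lpgat1, in each case in the upstream part of the window. No control Kac peak touches any of the 7 windows, but at Cnn2 and Lpgat1 the next one lay 111 and 222 bases from the gained peak. Lpgat1 has another annotated start, whose window is not printed: the gained peak covers 4 of its bases and a control peak touches it. CpG dinucleotides numbered 35 in the Rtn4rl2 window and 10 in the Plin2 window.

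Over all 32851 RefSeq promoter windows, 279 windows of 260 genes overlapped a gained peak, and 936 overlapped a kept peak. The windows at gained peaks were rich in CpG, with a median of 18 per window, but less so than those at kept peaks (24) or control peaks (25), against 7 over all windows. GGGCGG, the GC box bound by Sp factors, was found on either strand in 62.0% of the gained windows, 64.2% of the kept ones and 35.7% of all. CCGGAAG, an ETS factor motif, stood in 4.30% of the gained windows, 16.1% of the kept ones, 21.8% of those with a control peak and 8.86% of all. CCAAT stood in 30.5% of the gained windows and 37.4% of all, TATAAA in 8.24% and 13.6%, CACGTG in 8.24% and 7.15%, TGACGTCA in 1.79% and 1.79%, and TGANTCA, the AP-1 motif, in 6.45% and 7.81%. In the same order from CCAAT to TGANTCA, the shares were 24.1, 5.45, 6.94, 3.10 and 4.38% of the kept windows. Of the windows with a control peak they were 31.8, 5.15, 10.1, 3.72 and 3.72%. None of these motifs contains another, though matches may overlap in a window. A match is a run of letters and not a measured binding site.

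Gained peaks were placed less often at gene ends than kept peaks, and more often beyond 1 kb from any end, inside genes or between them. Counted without regard to ends, 60.8% of gained centres lay in a gene, against 70.8% of kept centres. The centres of 790 gained peaks (28.3%, 95% Wilson interval 26.7 to 30) lay within 1 kb of either end of a RefSeq gene, against 48.1% of kept peaks and 57.1% of control peaks. Another 1171 (42.0%) lay inside a gene beyond that distance, against 34.9% of kept peaks. The remaining 827 (29.7%) lay outside genes and beyond 1 kb from any end, against 16.9% of kept peaks. Intervals here cover counting error only.

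Measured from the starts in the promoter table, 24.0% of 2681 gained peaks and 43.6% of 4588 kept peaks were centred within 1 kb of a start. The share was 27.8% for MS-275 Kcr peaks without a control Kcr peak and 39.0% for crotonate Kac peaks without a control Kac peak. The table lacks a start for some genes and holds none on chromosome 18, which was left out, so these shares are too low by an amount that was not measured. Around the starts, 118 gained peaks were centred 500 to 250 bp upstream, 91 in the last 250 bp before the start and 114 in the first 250 bp after it. Kept peaks leaned to the downstream side, with 1214 after and 788 before the start within 1 kb, whereas gained peaks split 337 and 306.

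**Figure D1:**
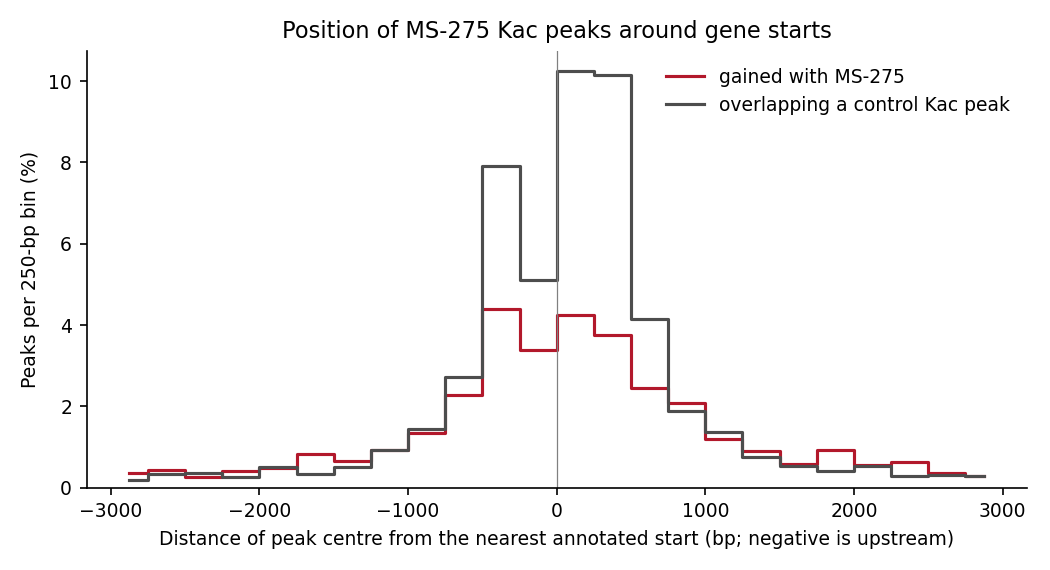
Share of MS-275 Kac peaks per 250-bp bin (y axis, percent of peaks with a start in the table) against the distance of the peak centre from the nearest annotated start in bp (x axis), for gained peaks (red) and kept peaks (grey). Kept peaks reach 10.2% in the first bin after the start, where gained peaks stand at 4.25%; beyond 1 kb the lines lie close together.

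The X chromosome held 2 of the 2788 gained peaks (0.0717%) and 6 of the 4767 kept peaks, against 248 of the 23427 control Kac peaks (1.06%) and 514 of the 16610 forebrain H3K9ac peaks (3.09%). Other NSPC lists were also low on this chromosome, with 0.458% of the crotonate Kac peaks and 0.0342% of the MS-275 Kcr peaks there.

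Most gained peaks were seen in few of the other lists. In no other list were 1042 gained peaks found (37.4%), against 213 kept peaks (4.47%), and 1180 (42.3%) were in no other NSPC list, against 5.31% of kept peaks. The crotonate Kac list held 1020 of them (36.6%, interval 34.8 to 38.4), against 81.3% of kept peaks, and the crotonate Kcr list held 1001 (35.9%), against 76.0%. The MS-275 Kcr list, the shortest with 5845 peaks, held 417 (15.0%), against 30% of kept peaks. The control Kcr list held 369 (13.2%), against 75.7% of kept peaks: these 369 regions were called as crotonylated, but not as acetylated, in control cells. Of the 7357 Kac peaks gained with crotonate by the same rule, 17.0% were in the control Kcr list. Of the 2871 MS-275 Kcr peaks that overlap no control Kcr peak, 35.8% were in the crotonate Kac list. These shares are thus not particular to Kac peaks gained with MS-275. At least 1 of the crotonate lists held 1415 gained peaks (50.8%), and both held 606 (21.7%).

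Part of the gained regions carried H3K9ac in the untreated forebrain. The forebrain H3K9ac list overlapped 796 gained peaks (28.6%, interval 26.9 to 30.3), against 63.9% of kept peaks, and the forebrain H3K9cr list 392 (14.1%), against 49.0%. The H3K9ac share was 32.0% for Kcr peaks gained with MS-275 and 47.8% for Kac peaks gained with crotonate. The authors' fold enrichment at the 752 forebrain H3K9ac peaks concerned had a median of 9.57, against 19.3 at those under kept peaks and 12.6 over the whole list. In the H3K9ac list but in no other NSPC list were 138 gained peaks (4.95%).

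**Figure D2:**
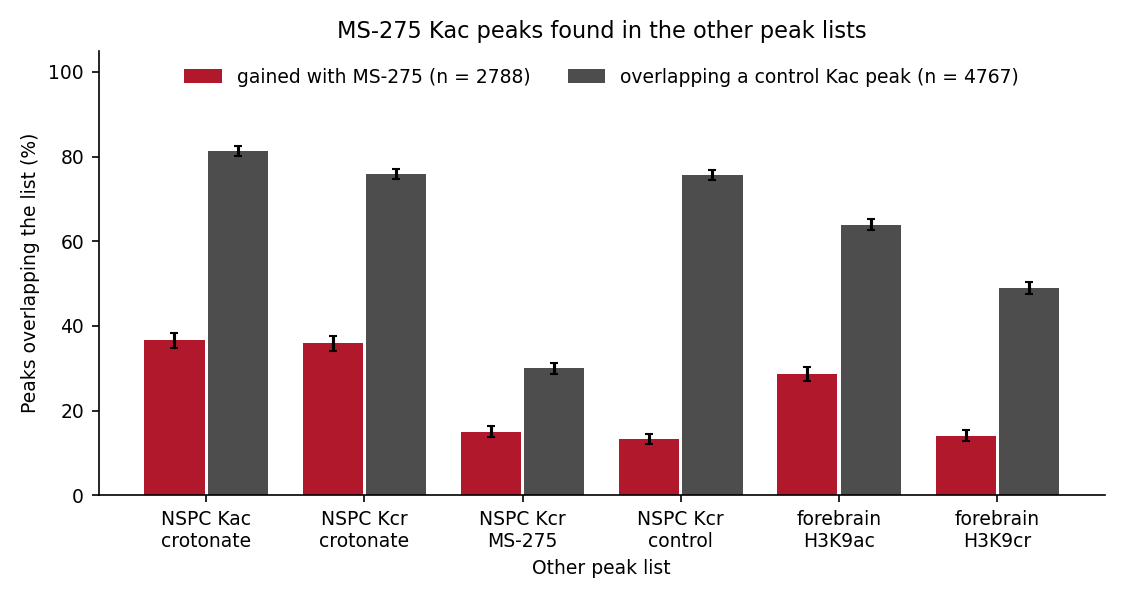
Percent of gained peaks (red, n = 2788) and kept peaks (grey, n = 4767) that overlap each other list by at least 1 bp (y axis), by list (x axis); whiskers are 95% Wilson intervals of counting error. Gained peaks are below kept peaks in each of the 6 lists, and the difference is widest for Kcr of control cells, 13.2% against 75.7%. Kept peaks overlap a control Kac peak by definition, and 59.5% of all control Kac peaks overlap a control Kcr peak, so this difference partly restates the rule.

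These shares varied with the distance to the nearest control Kac peak. Of the gained peaks less than 200 bp from a control peak, 52.0% were in the crotonate Kac list, 29.2% in the control Kcr list and 43.1% in the forebrain H3K9ac list. Among the 385 that lay 1 to 5 kb away the same lists held 20.3%, 8.05% and 14.5%. Among the 831 that lay 20 kb or more away they held 40.0%, 6.74% and 33.6%. The shares in the crotonate Kac and H3K9ac lists were thus lowest at middle distances, and that in the control Kcr list was lowest far away. The share within 1 kb of a start was 34.4%, 14.9% and 27.8%, so the gained peaks far from control acetylation were at starts more often than those at middle distances.

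The widest gained peak, 912 bp at chr4:141599042-141599953, lay in Fblim1, which codes for a filamin-binding LIM protein, 39397 bases from the next control peak. Fblim1 RNA stood at 25.8, 20.3, 22.8 and 22.2 TPM in the MS-275 libraries, against 5.74, 3.93, 4.63 and 5.02 TPM in the controls. The groups did not overlap, and the log2 fold change was 2.03 (SE 0.12, adjusted p = 2.6e-08 by limma over all genes). The third widest, 740 bp at chr2:109677245-109677984, lay in Bdnf, the gene of the brain-derived neurotrophic factor, 212538 bases from the next control peak. Bdnf RNA was 3.87, 2.77, 2.86 and 2.2 TPM with MS-275, against 1.5, 1.13, 1.69 and 1.66 TPM in the controls. Every MS-275 library was above every control, at a low level (log2 fold change 0.64, SE 0.15, adjusted p = 0.001955), but the call did not hold under quantile normalization (0.14, adjusted p = 0.402).

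Of the other 8 widest gained peaks, 5 had their centre in a gene. At Trpv2, a cation channel, RNA averaged 3.35 ± 0.256 TPM with MS-275 and 0.274 ± 0.356 TPM in the controls (SD, n = 4 each). The log2 fold change was 1.80 (SE 0.19, adjusted p = 2.6e-06). All Trpv2 controls were under 1 TPM, so the gene passed the filter described below only through the treated libraries and had to differ. At Agap2, a GTPase-activating protein of the brain, it averaged 42.0 ± 2.89 TPM with MS-275 and 24.4 ± 3.20 TPM in the controls, a log2 fold change of 0.77 (SE 0.08, adjusted p = 5e-06). Rapgef3, a cAMP-activated exchange factor, fell by 0.27 on the log2 scale (adjusted p = 0.01011), and Sall2, a zinc finger factor, fell by 0.15 (adjusted p = 0.008882, and 0.118 under quantile normalization); both have a control Kac peak near an end. The Rapgef3 peak also lies in Rapgef3os2, an overlapping gene, and whether strand was used to tell their RNA apart is not given in the sources used here. Spocd1, a germ cell gene in mouse, was below the filter and not tested: it was listed at 0.830, 0.501, 0.550 and 0.969 TPM with MS-275, and at 0, 0.0266, 0 and 0 TPM in the controls.

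RNA was then read over the genes next to gained peaks, a readout that the choice of peaks did not use. A gained peak lay within 1 kb of either end of 768 genes, of which 585 passed the filter of 1 TPM in 4 of the 12 NSPC libraries. The 183 below the filter were not tested, and a gene that passed only through the libraries where it is high had to differ, so the counts describe the genes that passed. With MS-275 against control, 368 of the 585 (62.9%) were called higher at adjusted p under 0.05, where 37.4% of the 14857 genes tested were, and 70 (12%) were called lower, where 27.6% of all were. Their median log2 fold change was 0.49, against 0.08 over all genes tested. In 340 of the 368 and in 61 of the 70, all 4 MS-275 libraries lay beyond all 4 controls. Calls past a 2-fold change upwards numbered 144 (24.6%), against 10.9% of all genes tested.

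RNA calls differed between genes with and without a control Kac peak near an end. Where the gene had none, 181 of 249 genes (72.7%) were higher with MS-275 and 8 (3.21%) were lower, with a median log2 fold change of 0.73. Where it had one, 187 of 336 (55.7%) were higher and 62 (18.5%) lower, with a median of 0.28. Genes with a kept peak and no gained peak were higher in 33.4% and lower in 34.3% of 1951. Genes with no Kac peak of either list near an end were higher in 50.0% and lower in 16.7% of 4603, so genes without control acetylation were called higher above the 37.4% of all genes with and without a gained peak near.

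**Figure D3:**
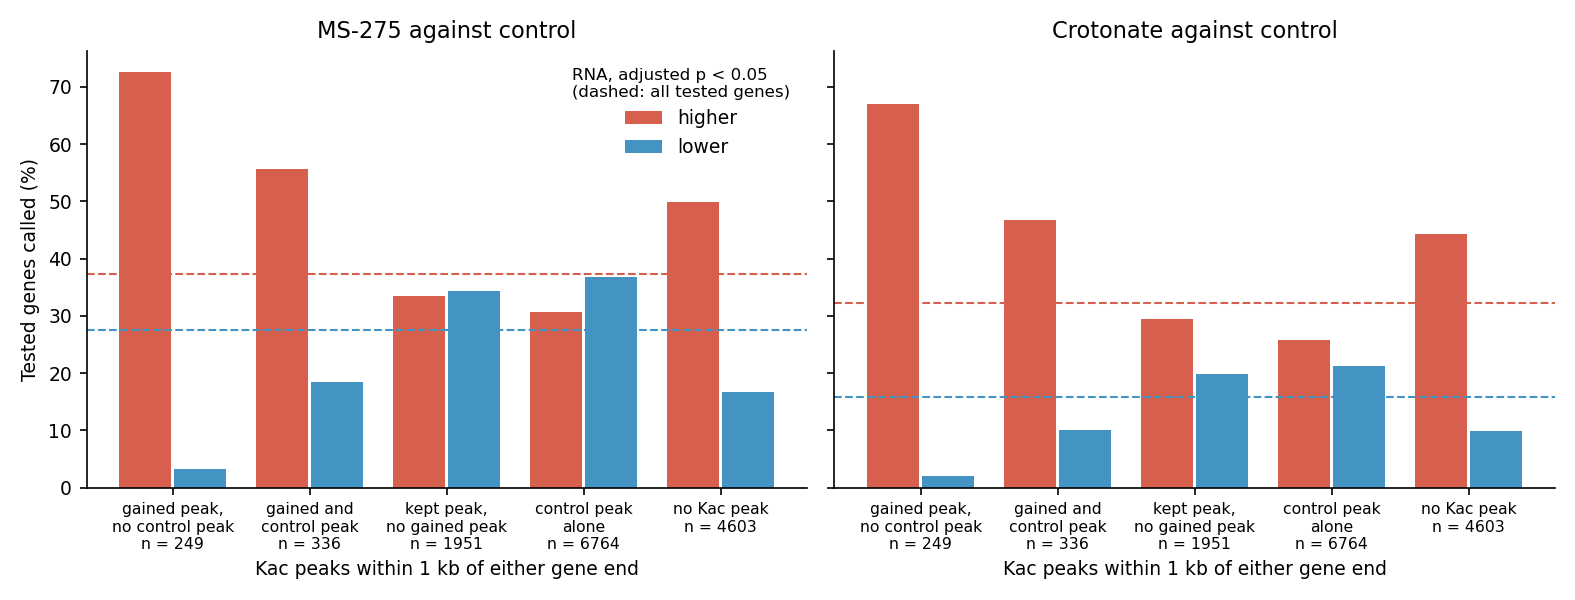
Percent of tested genes called higher (red) or lower (blue) at adjusted p under 0.05 (y axis) by the Kac peaks within 1 kb of either gene end (x axis, with n), for MS-275 against control (left) and crotonate against control (right); dashed lines give the same shares over all tested genes. Genes with a gained and no control peak have the tallest red bar in both panels, 72.7% and 67.1%.

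These classes differ in expression, the median over the 12 libraries being 6.27 TPM for genes with a gained and no control peak, 20.7 TPM with both, and 7.63 TPM with no Kac peak. The calls were therefore also counted within bands of mean level, set after the values were seen. Between 5 and 20 TPM, 74 of 94 genes with a gained and no control peak (78.7%) were called higher, against 54.5% of 1300 genes with no Kac peak and 44.5% of all 3898 genes of that band. Between 20 and 100 TPM it was 30 of 43 (69.8%), against 38.2% of 1109 and 30.4% of 5484. Between 2 and 5 TPM it was 40 of 56 (71.4%), against 60.4% of 879 and 54.3% of 1518; in that band 26 of 37 genes with both a gained and a control peak (70.3%) were higher, so the 2 classes were close there. Under 2 TPM it was 33 of 50 (66.0%), against 51.3% of 1059 and 47.9% of 1473. Above 100 TPM only 6 genes had a gained and no control peak, and 4 of them were higher.

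**Figure D4:**
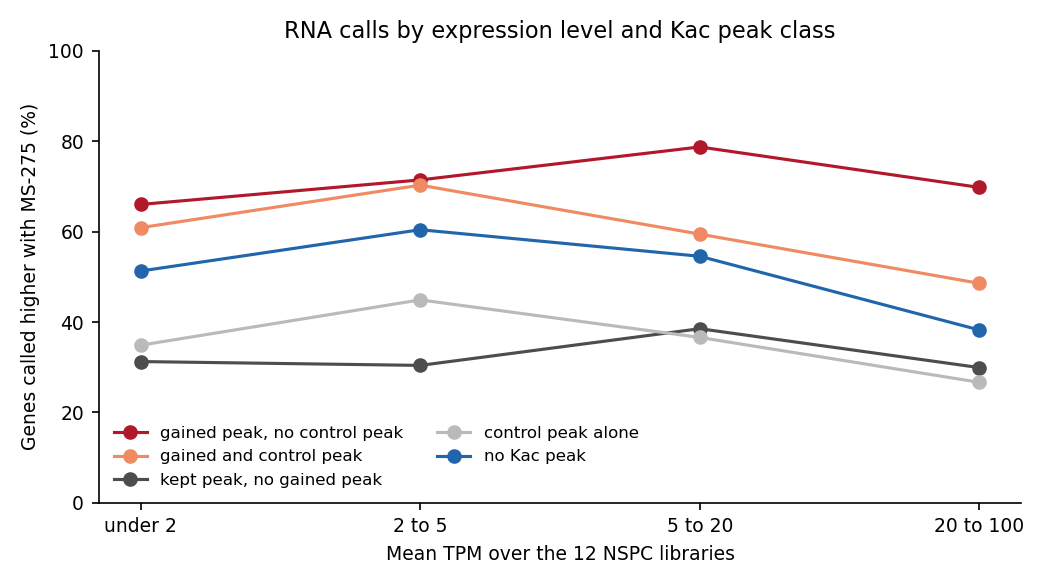
Percent of tested genes called higher with MS-275 against control (y axis) by mean TPM over the 12 NSPC libraries (x axis), 1 line per class of Kac peaks within 1 kb of either gene end. The line for a gained and no control peak lies between 66.0% and 78.7% and above the other 4 classes in each of the 4 bands; the band over 100 TPM is left out for its 6 genes.

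Crotonate, a treatment the choice of peaks did not use, gave the following for the same genes; its comparison shares the 4 control libraries with that of MS-275, so the values stand side by side. With crotonate against control, 324 of the 585 (55.4%) were higher, where 32.3% of all genes were, and 39 (6.67%) were lower, where 15.9% were; the median log2 fold change was 0.37, against 0.09 over all. Calls past a 2-fold change upwards numbered 91 (15.6%), against 6.15% of all. Of the 359 genes whose gained peak was also in the crotonate Kac list, 61.8% were higher with crotonate and 66.3% with MS-275. Of the 226 whose gained peaks were not, 45.1% were higher with crotonate and 57.5% with MS-275. MS-275 against crotonate, a comparison without the controls, had 178 of the 585 (30.4%) higher, where 19.3% of all were, and 114 (19.5%) lower, where 27.4% were.

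Scaling mattered for the split between directions. Under quantile normalization the median of all genes with MS-275 against control moved by more than 0.1, to -0.05, and the calls near gained peaks were 295 higher and 106 lower, so that 73.6% of calls were upward instead of 84.0%. Over all genes the same share was 46.5% instead of 57.5%. With crotonate the upward share was 89.3%, 79.8% after median-of-ratios scaling and 74.5% after quantile normalization, against 67.1, 47.7 and 45.6% over all genes. Relative to the median of all genes, the median near gained peaks stood 0.41 higher with MS-275, 0.42 after median-of-ratios scaling and 0.29 after quantile normalization.

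A gained peak inside a gene, more than 1 kb from its ends, went with a smaller shift: 308 of 616 such genes (50.0%) were higher with MS-275 and 108 (17.5%) lower, with a median log2 fold change of 0.23, against 37.4%, 27.6% and 0.08 over all genes tested. The 731 gained peaks near an end of a gene in the TPM table were counted for each such gene, and 78 of them lay near 2 or more genes. For 65 tested genes the peak was shared with another tested gene, and which of the genes it belongs to was not tested.

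The 12 genes that rose most near a gained peak have varied known roles. Of them, 10 had no control Kac peak near an end, as was so for 249 of all 585 tested genes near a gained peak. Capn5, a calpain-type protease, had a gained peak of 230 bp 79 bases inside its end on chromosome 7 (gene at chr7:98121559-98178946). Capn5, like Rhcg below, also had a control Kac peak near an end, with 477 bases between the gained peak and the next control peak. Its RNA was 24.4, 24.4, 21.8 and 21.5 TPM with MS-275, 6.61, 6.97, 5.93 and 6.40 TPM with crotonate, and 1.06, 1.35, 1.19 and 2.11 TPM in the controls. The 3 groups did not overlap, and MS-275 over control was 3.32 on the log2 scale (SE 0.12, adjusted p = 4e-10).

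Tnni1, the troponin I of slow skeletal muscle at chr1:135783033-135810989, had a gained peak of 477 bp 808 bases from an end. It stood at 16.9, 13.9, 13.8 and 13.0 TPM with MS-275, against 0.942, 0.266, 1.01 and 0.676 TPM in the controls. It was listed at 0 TPM in the forebrain library, and its log2 fold change was 3.18 (SE 0.25, adjusted p = 2e-07). Fabp3, the fatty acid-binding protein of heart, whose promoter window is printed above, stood at 45.2, 71.8, 50.8 and 52.3 TPM with MS-275, against 4.22, 9.38, 6.88 and 8.27 TPM in the controls. The lowest MS-275 library was above the highest control by a wide margin (log2 fold change 2.80, SE 0.21, adjusted p = 1.6e-07). The Fabp3 peak is the one among the 12 genes that overlapped all 6 other lists. Bvht, the long non-coding RNA Braveheart known from heart development, rose to 7.14, 6.09, 5 and 4.74 TPM with MS-275, against 0.589, 0, 0.276 and 0 TPM in the controls. It passed the filter of 1 TPM only through the treated libraries and had to differ.

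Among genes known from neurons, Npas1, a bHLH-PAS factor of forebrain interneurons, had between 8.92 and 13.53 TPM with MS-275, against 0.449, 0.476, 0.429 and 0.454 TPM in the controls. Every MS-275 library was far above the controls, which lay close together (log2 fold change 3.06, SE 0.13, adjusted p = 1.2e-09). Its controls were all under 1 TPM, so it passed the filter only through the treated libraries and had to differ. Rtn4rl2, a relative of the Nogo receptor, had 2 gained peaks, 1 inside the gene 1659 bases from its end and 1 beyond that end by 265 bases, with 45844 and 48034 bases to the next control peak. It had 26.5, 22.2, 24.3 and 22.9 TPM with MS-275, 25.4, 31.5, 27.4 and 22.7 TPM with crotonate, and 2.37, 1.45, 2.13 and 3.48 TPM in the controls. Both treatments were above the controls in every library and overlapped each other (MS-275 against control 2.92, SE 0.15, adjusted p = 7.3e-09; MS-275 against crotonate -0.14, adjusted p = 0.4734).

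The others of the 12 code for Prkcd, a protein kinase C, Axl, a receptor tyrosine kinase, Card10, a scaffold of NF-κB signalling, Rnase4, a ribonuclease, Rhcg, an ammonium transporter, and Lbhd2. Prkcd averaged 15.0 ± 0.691 TPM with MS-275 and 1.05 ± 0.374 TPM in the controls, and Axl 29.6 ± 0.86 TPM with MS-275 and 4.54 ± 0.778 TPM in the controls (SD, n = 4 each). Rhcg had 0.495 to 0.792 TPM in the controls, so it passed the filter only through the treated libraries and had to differ. Over all 12 the log2 fold changes with MS-275 ran from 2.47 to 3.32. All 12 were also called higher with crotonate against the same controls, from 0.98 to 3.18. Of the 12, 9 were higher with MS-275 than with crotonate. Over all genes tested, 32.3% were higher with crotonate and 19.3% were higher with MS-275 than with crotonate. The 12 were chosen by their MS-275 and control values, which these comparisons reuse in part, so nothing is read from these counts.

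The 12 genes that fell most near a gained peak changed by less, and most of them had control acetylation as well. Of these, 9 had a control Kac peak near an end, as had 336 of all 585 tested genes near a gained peak. The log2 fold changes of the 12 ran from -1.61 to -0.64. Cplx2, the complexin that binds SNARE complexes at synapses, had gained peaks of 349 bp, 135 bases from its end, and of 373 bp inside the gene. It fell to 10.3, 10.2, 11.3 and 8.15 TPM with MS-275, against 38, 43.9, 42.9 and 33.7 TPM with crotonate and 30.1, 32.8, 36.0 and 30.3 TPM in the controls. MS-275 lay below every library of both other groups (against control -1.61, SE 0.10, adjusted p = 3.8e-08). Spag5, astrin of the mitotic spindle, fell to 16.8, 17.5, 18.5 and 21.5 TPM with MS-275, against 53.4, 57.4, 57.8 and 56.8 TPM in the controls (-1.55, SE 0.08, adjusted p = 6.3e-09).

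Sox1, a transcription factor of neural progenitors, had a gained peak of 288 bp that ended 33 bases from a control peak, 933 bases from the gene. It had 8.73, 10.3, 9.32 and 9.76 TPM with MS-275, 17.9, 17.2, 17.1 and 19.4 TPM with crotonate, and 13.7, 16.6, 15.0 and 19.2 TPM in the controls. MS-275 was below both other groups, which overlapped (against control -0.69, SE 0.09, adjusted p = 2.3e-05). Lpgat1, a lysophospholipid acyltransferase whose window is printed above, averaged 7.115 ± 0.946 TPM with MS-275 and 14.1 ± 1.08 TPM in the controls (SD, n = 4 each). Of the 12, 11 were lower with MS-275 than with crotonate, where 27.4% of all genes tested were. With crotonate against control 6 were lower, 1 was higher and 5 were not called, where 15.9% of all were lower and 32.3% higher. These 12 were chosen by their MS-275 and control values, which these comparisons reuse in part, so nothing is read from these counts. The remaining names are Lcorl, Dusp8, Tfap4, Dcaf15, Glrx, Grin3a, Akt1s1 and Nop14.

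**Figure D5:**
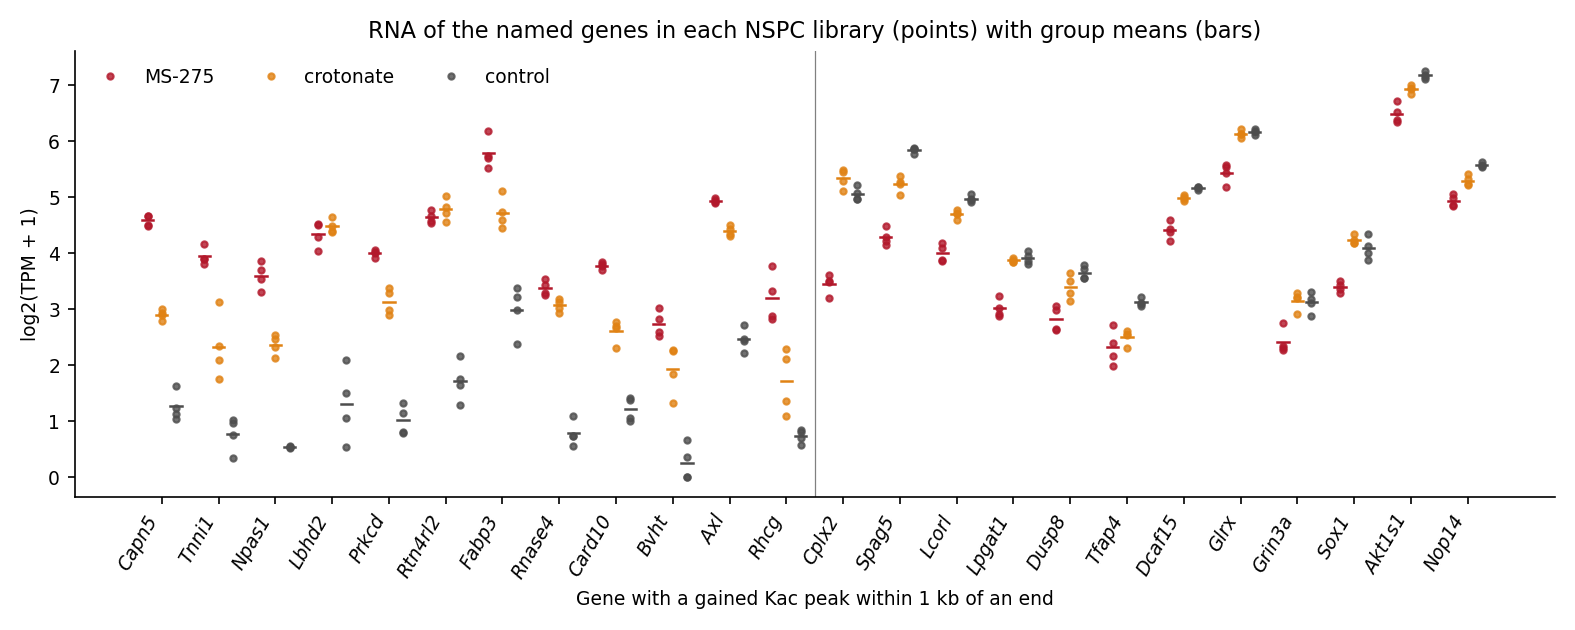
RNA of the 12 named genes that rose and the 12 that fell with MS-275 next to a gained Kac peak, as log2(TPM + 1) in each library (points; y axis) with group means (bars), in the order MS-275 (red), crotonate (orange), control (grey). In the genes left of the line the MS-275 and crotonate points lie above the controls. In those to the right the MS-275 points lie below the controls. That the MS-275 points lie beyond the controls is part of the rule that chose these genes.

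Lists of genes by function had members next to gained peaks at about the share of all genes. The 21 lists hold 372 entries, of which 307 were tested, and 11 members in 8 lists had a gained peak within 1 kb of an end, 3.58% of those tested, against 3.94% of all 14857 genes tested. Of these 11, 7 were higher with MS-275, 3 lower and 1 was not called. All counts of list members here stand beside 37.4% called higher and 27.6% called lower over all genes tested, and nothing is read from those that lie near these shares. The other 13 lists, among them cell cycle, cholesterol synthesis, acyltransferases, HDACs and corepressors, interferon and MHC, imprinted and REST-repressed genes, had none. Interferon and MHC genes rose in 21 of 21 tested and cell cycle genes fell in 32 of 34. With 3.94% of all genes near a gained peak, nothing is read from a list of this size that has no near member. Ccnd1, cyclin D1 of the cell cycle list, had 1 gained peak inside the gene and is named here after that was seen.

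In the synapse and excitability list, 20 of 28 tested genes were higher and 5 lower, and the 2 near gained peaks moved in opposite directions. Kcnt1, a sodium-activated potassium channel, had a gained peak 301 bases inside its end and 118239 bases from the next control peak. It had 16.0, 11.8, 15.7 and 12.3 TPM with MS-275, against 0.555, 1.63, 3.03 and 2.29 TPM in the controls (2.45, SE 0.23, adjusted p = 1.3e-06). Cplx2, above, is the other. Elavl3, a neuronal RNA-binding protein, is the 1 near gene of the differentiation list, where 12 of 20 were higher. It averaged 38.6 ± 0.778 TPM with MS-275 and 21.5 ± 1.46 TPM in the controls, a log2 fold change of 0.82 (SE 0.05, adjusted p = 2.4e-08).

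Of the radial glia and neural stem list, 10 of 22 were higher and 7 lower, near the shares over all genes; its near members were Sox1 and Tnc, the matrix protein tenascin-C. Tnc had a control Kac peak near an end, with 392 bases between its gained peak and the next control peak. Tnc averaged 492 ± 32.9 TPM with MS-275, 261 ± 15.8 TPM with crotonate and 357 ± 32.0 TPM in the controls. It was thus higher with MS-275 (0.46, adjusted p = 5.3e-05) and lower with crotonate (-0.45, adjusted p = 0.00015), although its gained peak was also in the crotonate Kac list. Cspg4, the NG2 proteoglycan of oligodendrocyte precursors, had 30.3, 32.0, 28.4 and 28.9 TPM with MS-275, against 16.6, 18.7, 15.5 and 17.1 TPM in the controls (0.78, SE 0.08, adjusted p = 2.8e-06). Cspg4 was the 1 near member of its list, where 5 of 10 were higher and 2 lower.

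Gfap, the intermediate filament of astrocytes, had a gained peak 539 bases beyond its end. Its libraries spread widely, at 20.7, 6.57, 12.3 and 9.56 TPM with MS-275 and 11.9, 5.31, 11 and 8.23 TPM in the controls, and the groups overlapped. Each MS-275 library was above the control of the same replicate number. The log2 fold change of 0.34 (SE 0.36) had an adjusted p = 0.4313, and an adjusted p = 0.0314 with the replicate number as a block. Of the astrocyte list, 7 of 11 were higher.

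Of the CDK inhibitor and p53 target list, 9 of 16 were higher and 4 lower. Trp53, the gene of p53, had 74.8, 76.0, 79.4 and 71.3 TPM with MS-275, against 116, 115, 119 and 111 TPM in the controls (-0.61, SE 0.04, adjusted p = 5.7e-08). Its gained peak lay 890 bases beyond an end. Cdkn1a, the inhibitor p21, had 549 to 589.6 TPM in the MS-275 libraries, all above the 476 to 484 TPM of the controls (0.26, SE 0.03, adjusted p = 5.7e-06). Plin2, a coat protein of lipid droplets from the fatty acid list, rose by 0.60 (SE 0.08, adjusted p = 2.4e-05), and 14 of 18 genes of that list were higher. Cnn2, calponin 2 from the actin list, rose by 1.75 (SE 0.10, adjusted p = 1e-08) to 46.1 ± 2.77 TPM, against 13.1 ± 2.25 TPM in the controls. Of that list 5 of 14 were higher and 4 lower, near the shares over all genes. Trp53, Cdkn1a and Cnn2 each had a control Kac peak near an end. Their gained peaks lay 7720, 161 and 111 bases from the next control peak.

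Some long genes held several gained peaks. In or within 1 kb of 8 genes lay 5 or more, and those given here were chosen for that count, after it was seen. Gse1, found with HDAC-containing corepressor complexes, held 11 over 352.9 kb, in groups that ran from 41 to 10710 bases away from the next control peak. Its RNA was 14.7, 16.3, 14.5 and 14.5 TPM with MS-275, 22.7, 21.9, 22.5 and 25.5 TPM with crotonate, and 16.1, 17.0, 17.4 and 18.7 TPM in the controls. The MS-275 and control groups overlapped by the highest MS-275 library, and the change of -0.19 (SE 0.07) passed the threshold at adjusted p = 0.02042. Without MS-275 replicate 3, MS-275 replicate 4 or control replicate 4 it did not, at adjusted p = 0.051, 0.051 and 0.062. Nfia, a factor of gliogenesis, and Sept9, a septin, held 6 each. Dnaic1, Maml2, Msi2 and Plpp3 held 5 each. The level of RNA in these genes did not follow the number of gained peaks in 1 direction: Nfia fell by 0.37 (adjusted p = 0.0003) and Sept9 rose by 0.25 (adjusted p = 2.8e-06).

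Markers were read as a check on the label of the RNA libraries. All 8 NSPC markers were at 1 TPM or more in every control. So were 4 of 4 astrocyte, 3 of 5 oligodendrocyte lineage and 3 of 5 neuronal markers. This level thus does not tell NSPCs from those types. By contrast, 3 of 4 microglial, 3 of 4 erythroid and 3 of 4 endothelial markers were under 1 TPM in all 12 libraries. Marker sums were higher with MS-275 in most lists. A sum is weighted towards its highest members and does not show that each member rose. Of the radial glia and neural stem list above, 10 of 22 genes were higher and 7 lower. The 8 NSPC markers summed to 13551 to 14221 TPM with MS-275 and 9628 to 10161 TPM in the controls, and the 4 endothelial markers to 3.87 to 4.91 TPM with MS-275 and 0.734 to 1.21 TPM in the controls. The 4 astrocyte markers summed to 94.3 to 120 TPM with MS-275 and 47.5 to 58.6 TPM in the controls, and the 5 of the oligodendrocyte lineage to 2837 to 3117 TPM with MS-275 and 1682 to 1879 TPM in the controls. The 5 neuronal markers summed to 347 to 371 TPM with MS-275 and 308 to 329.7 TPM in the controls. Their part in the results was not tested, and in bulk RNA a different number of cells of a type and a different RNA level per cell cannot be told apart. Of all these markers, Gfap alone had a gained peak within 1 kb of an end.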

How the data were processed

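The authors deposited 1 table of TPM values for 12 NSPC RNA libraries and 1 forebrain library, with Salmon 1.0.0 named in the submitters' processing notes, which also name Bowtie2 2.3.5.1, MACS2 2.2.5 and GRCm38 for the ChIP libraries. No read counts are given, so depth is unknown. The NSPC peak lists hold positions only. For each forebrain peak the authors deposited a fold over the control library and a −log10 q value, of which the second was read only to check the files. The explant table and the methylation data were not used here, and no deposited column was left without a sample.

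Peaks on the autosomes, X and Y were intersected with bedtools 2.31.1, with a minimum overlap of 1 bp. Genes were tested with limma 3.58.1 (R 4.3.3; empirical Bayes with a trend) on log2(TPM + 1), over the 14857 genes with 1 TPM in 4 of the 12 libraries, in 1 fit of the 3 NSPC groups, with Benjamini-Hochberg adjustment over all of them and a threshold of 0.05. Fold changes are on that scale and understate low genes. Overlap counts and the fit were tested on simulated data. Of the tested genes, 13903 (93.6%) have a RefSeq position (GRCm38.p6); a gene is near a peak within 1 kb of either end, since the gene table gives no strand. Of the genes near a gained peak, the text names those 12 in each direction that changed most, among those that passed the threshold, with all 4 MS-275 libraries beyond all controls, a mean of at least 5 TPM in the higher group and no predicted-gene name, and at most 4 per list by smallest adjusted p; peaks are named by width and by distance to a control peak. The members and lists were chosen with earlier results of these data known.

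The replicate numbers pair the RNA samples: once group means were subtracted, same-numbered libraries correlated (12 pairs) at 0.119 to 0.241 and the 36 other pairs at -0.197 to 0.0993. The fit without this block was kept. Alternatives were other pseudocounts, filters, scalings, definitions of gained and of near, the block, and leaving out each library. The 18 pairs of libraries within a group correlated at 0.981 or more over the tested genes, and 0 pairs were identical. One gene with several gained peaks is not reported here.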

Additional observations from a re-analysis of the deposited data

Results flagged for a closer look

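Outlying libraries were looked for in 129 groups of 4 libraries (33 genes named by rule and 10 at the widest gained peaks or with 6 or more of them, 3 treatments), by Dixon's criterion at 95%, which chance alone meets in about 1 group in 20. In 7 groups 1 library stood apart. Grin3a, an NMDA receptor subunit with a gained peak across its end, was at 5.73 TPM in MS-275 replicate 4 and between 3.82 and 4.09 TPM in the other MS-275 libraries. Trp53 was at 93.1 TPM in crotonate replicate 3 and between 86.3 and 87.4 TPM in the other crotonate libraries. Cspg4 was at 18.6 TPM in crotonate replicate 2 and between 14.5 and 15.1 TPM in the others. Fblim1 was at 19.7 TPM in crotonate replicate 2 and between 13.6 and 14.3 TPM in the other crotonate libraries. Trpv2 was at 0.807 TPM in control replicate 4 and between 0.0631 and 0.133 TPM in the other controls. Gse1 was at 16.3 TPM in MS-275 replicate 2 and between 14.5 and 14.7 TPM in the other MS-275 libraries. Nfia was at 24.8 TPM in crotonate replicate 3, below the 27.8 to 28.4 TPM of the other crotonate libraries.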

How the results depend on the processing

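The number of gained peaks was 3417 when a peak was gained unless a control peak covered at least 50% of it, 1645 with no control peak within 1 kb, 1260 within 5 kb and 53 at 500 bp or more. The share in the other lists moved beyond its counting interval in most settings. With 50% of the peak covered it was 27.5% (crotonate Kac), 25.8% (crotonate Kcr), 11.05% (MS-275 Kcr), 8.57% (control Kcr), 23.9% (H3K9ac) and 11.3% (H3K9cr). Within 1 kb, in the same order, it was 61.4, 59.9, 30.02, 36.4, 41.5 and 24.3%. With no control peak within 1 kb it was 32.9, 33.98, 13.3, 7.84, 25.3 and 11.4%. At 500 bp or more it was 54.7, 47.2, 50.9 and 34.0% in the first 4.

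Near gained peaks, the shares called higher stayed within 1.5 times in every alternative of the 3 comparisons. The share called lower with MS-275 was 18.1% under quantile normalization, 3.21% without a control peak at the gene and 3.75% with the stricter gained peaks; with crotonate it was 12.1% with median-of-ratios and 13.2% with quantile scaling, 10.4% within 5 kb, 2.01% and 2.25% in the last 2 settings. The median log2 fold change with MS-275 was 0.40 at 5 TPM, 0.37 without a filter, 0.56 and 0.30 with pseudocounts of 0.1 and 5, 0.43 and 0.24 with the 2 scalings, 0.33 within 5 kb, 0.34 with peaks inside genes, 0.41 by starts, 0.73 without a control peak at the gene and 0.72 with stricter peaks. With crotonate it was 0.31, 0.27, 0.43, 0.23, 0.28, 0.15, 0.25, 0.26, then 0.58 and 0.56 in the last 2. With MS-275 against crotonate it was 0.0954 and 0.0879 with the 2 scalings, 0.12 and 0.13 in the last 2. The cause was not tested.

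Leaving out 1 library gave 59.4 to 62.8% higher, 11.1 to 12.8% lower and a median of 0.47 to 0.51 with MS-275, 52.3 to 56.1%, 5.48 to 6.93% and 0.36 to 0.37 with crotonate, and 26.5 to 31.3%, 17.5 to 19.8% and 0.05 to 0.07 for MS-275 against crotonate. With the replicate block 368 of the 585 genes were higher with MS-275 (62.9%) and 76 lower (13.0%). Each alternative fit was also run on 43 genes, the 33 named by rule and 10 at the widest gained peaks or with 6 or more of them; 4 of these, Bvht, Bdnf, Trpv2 and Rapgef3os2, do not pass 5 TPM in 4 libraries and have no value there. No direction changed. The block added a call for Gfap, quantile normalization ended those of Bdnf (adjusted p = 0.402) and Sall2 (0.118) and added Rapgef3os2 (0.00614), and the call of Gse1 was lost without MS-275 replicate 3 or 4 (0.051 each) or control replicate 4 (0.062). Without read counts, what depth limits is unknown.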
